A study of Bos taurus with 12 samples.

Results

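The genes described here are the 10 listed for hepatic triacylglycerol storage, export and lipolysis: GPAM, AGPAT2, LPIN1, LPIN2, DGAT1 and DGAT2 for synthesis, PLIN2 for the droplet surface, PNPLA2 and PNPLA3 for lipolysis, and MTTP for export. They were listed by symbol, with no threshold on their values but with earlier results of these data known. Each was matched to 1 of the 30336 Entrez gene IDs counted. Of the 10, 9 were expressed strongly enough to be among the 13212 genes tested, and PNPLA3 was not. By the study's account, liver of 12 Holstein heifer calves was taken by puncture biopsy at 4 d of age, 6 calves per maternal diet. Dams of CON calves ate a basal close-up diet for the last 28 d of gestation, with 1.47 Mcal/kg of dry matter and crude protein at 15.3%, and received no Met supplement. Dams of MET calves ate the same diet with ethyl-cellulose rumen-protected Met. After birth all calves were reared alike. RNA was read from polyadenylated, strand-specific libraries and counted per gene.

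Triacylglycerol is built in the hepatocyte by acylation of glycerol-3-phosphate, removal of the phosphate by lipins, and a last acylation by the DGAT enzymes. It is held in lipid droplets coated with perilipins, from which lipases release fatty acids, or it is loaded onto apolipoprotein B by the microsomal triglyceride transfer protein and secreted as very-low-density lipoprotein. The ruminant liver is known for slow export by that route, and the newborn liver receives much fatty acid from colostrum and milk.

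The libraries held 8277789 to 10397604 counted reads, and 3 reads, the floor used here, equalled 0.277 to 0.377 CPM (reads scaled to a common library total after TMM normalization). Floors cover counting error only. CON replicates 1 and 4 were near-identical, and so were MET replicates 1 and 3 (chi-square per gene of 1.33 and 1.24, against at least 25.1 for all other pairs of libraries). Whether the 2 libraries of a pair came from 1 calf is not known, and each pair was counted as 1 sample, so that each diet has 5 samples in means, SD and exact tests, where a pair enters with its mean CPM. Fold changes were fitted to the 12 libraries and also to 10 samples made by adding up the reads of each pair. Diet and first sequencing index cannot be told apart, because the index was shared within each diet. Hepatocyte markers were all present, with 6 of 6 tested and a summed level of 132550 to 179223 CPM in CON and 108795 to 142250 CPM in MET samples. Of the 5 adipocyte genes, ADIPOQ and LEP had 0 reads, and RETN, PLIN1 and CIDEA had 60, 266 and 1015 in the 12 libraries together.

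In edgeR's quasi-likelihood test, 0 of the 9 tested genes reached an FDR of 0.10 between the diets. DESeq2, voom and a fit with a replicate block each called 1 of them, LPIN1, over the 12 libraries (10.4%, 4.21% and 0.0454% of all genes). The block used replicate numbers, which pair nothing between the diets, and all of these fits counted the near-identical libraries separately. LPIN1, a phosphatidate phosphatase, had the widest difference of the 9, with 42.0 ± 19.9 CPM in CON and 12.4 ± 11.8 CPM in MET samples (SD, n = 5 each), but edgeR's adjusted p missed the threshold over both the 12 libraries and the 10 samples. Over the 12 libraries, 583 genes reached an FDR of 0.10 by edgeR's quasi-likelihood test (Benjamini-Hochberg adjusted), 4.41% of those tested, with 276 (2.09%) higher and 307 (2.32%) lower in MET. Scaled by library size alone, 71 genes were higher and 36 lower. Before adjustment, edgeR's p was at most 0.05 for 2715 genes (20.5%), among them 1 of the 9 triacylglycerol genes, LPIN1 (11.1%). Over the 10 samples, 0 of 13242 genes (0%) and 0 of the 9 reached that FDR, while edgeR's p before adjustment was at most 0.05 for 16.3% of all genes and again for LPIN1 alone of the 9. With DESeq2, 10.4% of genes and 1 of the 9, LPIN1, reached an adjusted p of 0.10 over the 12 libraries, against 5.71% and 0 over the 10 samples. With edgeR's robust estimation, 4.51% of genes and 0 of the 9 did so over the 12 libraries. The median log2 fold change from CON to MET was −0.09 over the 9 genes and −0.00311 over all genes tested, with 4 of the 9 positive and 5 negative. In 0 of the 9 were all MET samples on one side of all CON samples, against 3.71% of all genes tested.

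**Figure D1:**
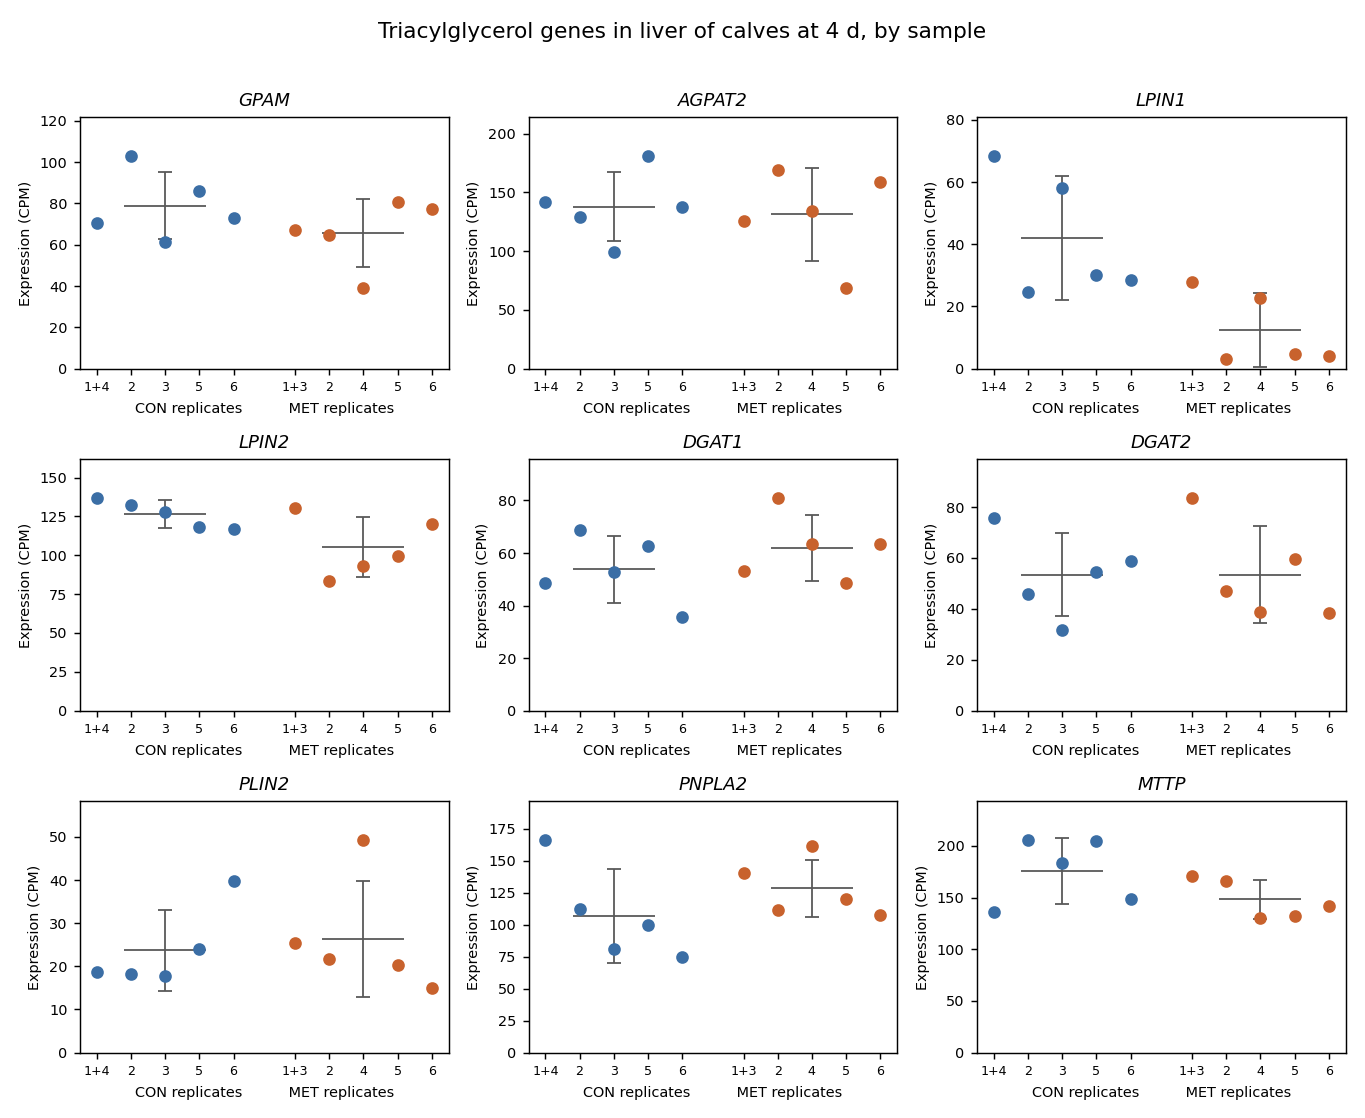
Expression of the 9 tested triacylglycerol genes (y axis, CPM) in each of the 10 samples (x axis, replicate numbers, with 1+4 and 1+3 the averaged near-identical libraries; blue CON, orange MET). The grey line and bars are the mean and SD of the 5 samples of a diet. For LPIN1, 3 MET samples lie between 3.03 and 4.70 CPM, while all 5 CON samples are at 24.8 CPM or above.

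Set per exonic length and ordered by the median over the 10 samples, AGPAT2 had the highest level of the 10 genes and PNPLA3 the lowest. Mean levels in RPKM (CPM divided by the exonic length in kilobases) in CON and MET samples (n = 5 each) were 104 ± 22.1 and 98.6 ± 29.5 for AGPAT2, 49.2 ± 16.9 and 59.1 ± 10.4 for PNPLA2, and 42.6 ± 7.78 and 35.9 ± 4.55 for MTTP (± SD). DGAT1 (32.1 ± 7.63 and 37.1 ± 7.51 RPKM) and DGAT2 (21.4 ± 6.56 and 21.5 ± 7.63 RPKM) followed, then LPIN2 (15.3 ± 1.08 and 12.8 ± 2.36 RPKM), GPAM (11.5 ± 2.36 and 9.58 ± 2.38 RPKM) and PLIN2 (10.4 ± 4.09 and 11.5 ± 5.86 RPKM). LPIN1 came next at 12.3 ± 5.86 RPKM in CON and 3.65 ± 3.48 RPKM in MET samples. By CON means LPIN1 stood above GPAM and PLIN2, and by MET means DGAT1 stood above MTTP and PLIN2 above GPAM. Neighbours in the order by median that did not differ by more than the SD of their log2 ratio over the 10 samples were PNPLA2 and MTTP (0.44 ± 0.54), MTTP and DGAT1 (0.20 ± 0.34), GPAM and PLIN2 (0.01 ± 0.82), and PLIN2 and LPIN1 (0.97 ± 1.59). The median SD within a diet was 0.37 on the log2 CPM scale over the 9 tested genes and 0.29 over all genes tested. LPIN1 was the most variable of the 9 (SD 1.14, above 98.4% of the genes tested), and LPIN2 the least (SD 0.20, above 23.8%).

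GPAM (Entrez gene 497202), the mitochondrial enzyme that puts the first acyl chain on glycerol-3-phosphate, lies on chromosome 26 from 32963400 to 33020258 (UMD 3.1.1, as are all positions here). Its level in CON was 70.7 CPM in the sample of replicates 1 and 4, and 103, 61.3, 86.2 and 73.2 CPM in replicates 2, 3, 5 and 6. In MET it was 67.1 CPM in the sample of replicates 1 and 3, and 64.6, 39.1, 80.8 and 77.2 CPM in replicates 2, 4, 5 and 6. The diets overlapped, and MET replicate 4 alone fell below every CON sample. The log2 fold change of GPAM was −0.23 over the 12 libraries (95% confidence interval −0.59 to 0.13, edgeR adjusted p = 0.461) and −0.26 over the 10 samples (−0.69 to 0.17, adjusted p = 0.536). GPAM took 16.5 ± 3.33% of the summed RPKM of the 4 GPAT genes in CON and 14.4 ± 4.16% in MET samples, and GPAT4, an enzyme of the endoplasmic reticulum, took 73.2 ± 4.97% and 73.3 ± 3.55% (SD, n = 5). Neither GPAT4 (log2 fold change −0.05, edgeR adjusted p = 0.827) nor GPAT3 (0.19, adjusted p = 0.544) passed the threshold, and GPAT2 had 18 reads in the 12 libraries together.

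AGPAT2 (Entrez gene 512112; chromosome 11, 104134195 to 104146465) adds the second acyl chain and gives phosphatidic acid. Its CON values were 142 CPM in the paired sample and 129, 99.5, 181 and 138 CPM in replicates 2, 3, 5 and 6, and its MET values were 126 CPM in the paired sample and 169, 134, 68.5 and 159 CPM in replicates 2, 4, 5 and 6. The ranges overlapped almost throughout, and the lowest value was that of MET replicate 5. AGPAT2 had a log2 fold change of −0.09 (95% confidence interval −0.50 to 0.33, edgeR adjusted p = 0.838) over the 12 libraries and of −0.07 (−0.57 to 0.43) over the 10 samples. It made up 78.2 ± 4.86% of the RPKM of the 5 AGPAT genes in CON and 75.3 ± 6.89% in MET samples (SD, n = 5). AGPAT1 was at 32.8 ± 1.96 and 33.8 ± 1.84 CPM, with a narrower spread than AGPAT2. AGPAT3 was at 21.3 ± 4.29 and 24.9 ± 1.49 CPM (log2 fold change 0.30, edgeR adjusted p = 0.208). An unnamed gene on the opposite strand overlaps AGPAT2 and held 328 reads, against 15234 for AGPAT2, in a count that used strand.

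Lipins turn phosphatidic acid into diacylglycerol, and lipin 1 is also known as a nuclear co-regulator of fatty acid oxidation genes. LPIN1 (Entrez gene 537224) lies on chromosome 11 from 86050742 to 86128538, and 31 to 632 reads per library were counted on it. In CON its level was 68.5 CPM in the sample of replicates 1 and 4, and 24.8, 58.2, 30.0 and 28.4 CPM in replicates 2, 3, 5 and 6. In MET it was 27.9 CPM in the sample of replicates 1 and 3, and 3.03, 22.6, 4.70 and 4.02 CPM in replicates 2, 4, 5 and 6. Of the 5 MET samples, 4 were below every CON sample, and the paired MET sample lay within the lower part of the CON range. MET replicates 2, 5 and 6 were far below all other samples, and in CON the pair and replicate 3 were well above the other 3. Mean CPM was 3.38-fold higher in CON than in MET samples. The fitted log2 fold change of LPIN1 was −1.62 over the 12 libraries (standard error 0.53, 95% confidence interval −2.77 to −0.48, unadjusted p = 0.00880, edgeR quasi-likelihood p adjusted by Benjamini-Hochberg = 0.123). Over the 10 samples it was −1.73 (−3.01 to −0.45, adjusted p = 0.206). The difference in mean log2 CPM was −2.20 (5 against 5, exact two-sided permutation p = 0.0159, not adjusted for the other genes, where 0.00794 is the smallest p that 252 arrangements can give). The adjusted p lay between 0.0826 and 0.257 in 25 alternative settings. It fell under 0.10 in 3 of them, at 0.0859 with DESeq2, 0.0826 with voom and 0.0941 with a replicate block. Each of these was over the 12 libraries, with near-identical libraries counted separately, and the numbers used for the block pair nothing between the diets. No single library carried the direction, since the log2 fold change was −1.91 to −1.41 with each library left out in turn.

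LPIN2 (Entrez gene 514448; chromosome 24, 37558579 to 37649006), the lipin known to be prominent in liver, was steadier. CON samples had 137 CPM in the pair and 132, 128, 118 and 117 CPM in replicates 2, 3, 5 and 6, and MET samples 131 CPM in the pair and 83.5, 92.8, 99.8 and 120 CPM in replicates 2, 4, 5 and 6. In MET, 3 of 5 samples were below all CON samples. The log2 fold change of LPIN2 was −0.23 over the 12 libraries (95% confidence interval −0.49 to 0.04, edgeR adjusted p = 0.322) and −0.26 over the 10 samples (−0.56 to 0.04, adjusted p = 0.365). LPIN3, the remaining family member, was at 23.4 ± 4.71 CPM in CON and 25.3 ± 6.01 CPM in MET samples (log2 fold change 0.11, edgeR adjusted p = 0.757).

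The share of LPIN1 in the lipin mRNA varied widely between samples. LPIN1 took 26.1 to 46.4% of the summed lipin RPKM in CON samples and 5.30 to 26.8% in MET samples, and the summed level itself was 27.7 to 43.7 RPKM in CON and 16.8 to 31.5 RPKM in MET samples. The log2 ratio of LPIN2 to LPIN1, per exonic length, was 0.43 ± 0.61 in CON and 2.35 ± 1.38 in MET samples (SD, n = 5). It ranged from −0.28 to 1.13 in CON and from 0.75 to 3.55 in MET samples, so that the diets overlapped. The difference of 1.92 had an exact two-sided permutation p of 0.0397, and of 0.0794 after Benjamini-Hochberg adjustment over the 2 isozyme ratios tested. The adjusted value did not pass 0.05. Leaving out CON replicate 3, 5 or 6 or MET replicate 2, 5 or 6 raised the unadjusted exact p to between 0.0635 and 0.0794, with differences of 1.62 to 2.00.

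**Figure D2:**
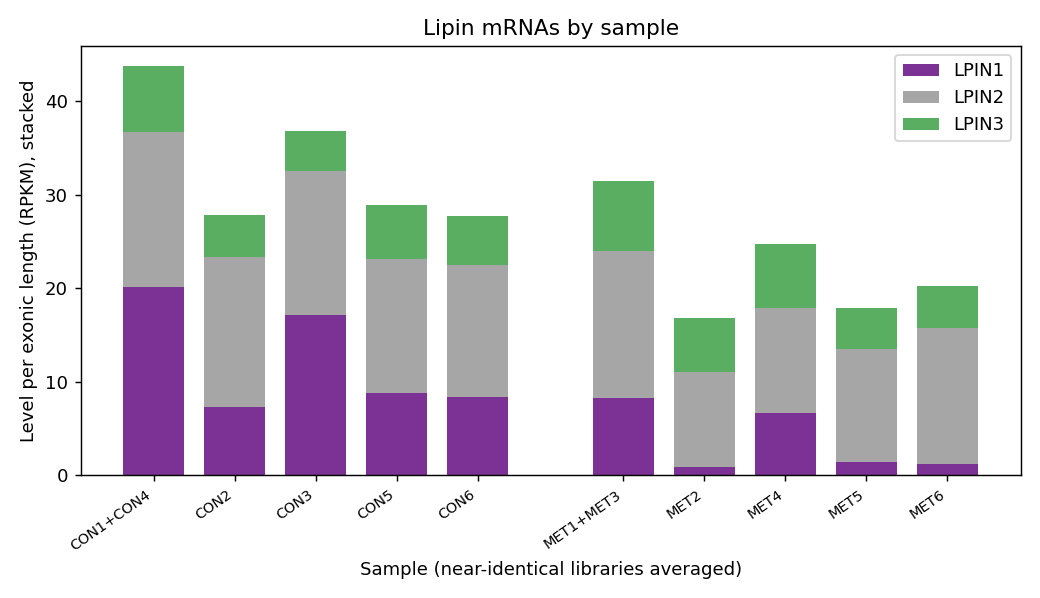
Summed level of the 3 lipin mRNAs (y axis, RPKM, stacked by gene) in each of the 10 samples (x axis). LPIN1, the lowest segment, takes 46.4% of the total in CON replicate 3 and 5.30% in MET replicate 2.

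DGAT1 and DGAT2 are unrelated enzymes that both make triacylglycerol from diacylglycerol, DGAT2 being tied mainly to newly made fatty acids. DGAT1 (Entrez gene 282609; chromosome 14, 1795425 to 1804838) was at 48.7, 68.8, 52.8, 62.5 and 35.8 CPM in the 5 CON samples (the pair, then replicates 2, 3, 5 and 6) and at 53.3, 81.1, 63.3, 48.4 and 63.6 CPM in the 5 MET samples (the pair, then replicates 2, 4, 5 and 6). DGAT2 (Entrez gene 404129; chromosome 15, 55940757 to 55973229) was at 75.8, 45.9, 31.6, 54.6 and 58.8 CPM in CON and at 83.8, 47.0, 38.9, 59.5 and 38.2 CPM in MET samples, in the same order. Both genes overlapped between the diets, and the paired sample was the highest of its diet for DGAT2. Log2 fold changes over the 12 libraries were 0.19 for DGAT1 (95% confidence interval −0.15 to 0.54, edgeR adjusted p = 0.520) and 0.04 for DGAT2 (−0.50 to 0.57, adjusted p = 0.955). The log2 ratio of DGAT2 to DGAT1 was −0.61 ± 0.68 in CON and −0.83 ± 0.68 in MET samples (SD, n = 5; exact two-sided permutation p = 0.571). DGAT1 thus held 60.0 ± 11.2% of the summed DGAT RPKM in CON and 63.5 ± 11.0% in MET samples.

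PLIN2 (Entrez gene 280981; chromosome 8, 25129104 to 25143157) coats hepatic lipid droplets, and its protein is known to be stabilised by stored lipid. Most samples had 14.9 to 25.5 CPM, and 1 sample of each diet stood above. The CON values were 18.6 CPM in the pair and 18.2, 17.8, 24.0 and 39.8 CPM in replicates 2, 3, 5 and 6, and the MET values were 25.5 CPM in the pair and 21.8, 49.4, 20.4 and 14.9 CPM in replicates 2, 4, 5 and 6. Its log2 fold change was 0.20 over the 12 libraries (95% confidence interval −0.39 to 0.78, edgeR adjusted p = 0.725). It was −0.08 without MET replicate 4 and 0.43 without CON replicate 6. Of the perilipin genes, PLIN3 had the most mRNA per length, with 69.4 ± 5.75% of the summed RPKM in CON and 69.6 ± 8.91% in MET samples, against 20.2 ± 7.01% and 21.5 ± 9.83% for PLIN2 (SD, n = 5). PLIN5, which ties droplets to mitochondria, was at 7.64 ± 3.23 and 7.29 ± 3.89 CPM. CIDEB, a droplet protein that also serves the lipidation of lipoproteins, was at 159 ± 29.2 and 167 ± 19.8 CPM, and neither gene nor PLIN3 passed the threshold (edgeR adjusted p between 0.622 and 0.940).

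PNPLA2 (Entrez gene 508493; chromosome 29, 50742385 to 50765799) encodes adipose triglyceride lipase, the enzyme of the first lipolytic step. It was at 167 CPM in the CON pair and at 112, 80.9, 99.8 and 74.5 CPM in CON replicates 2, 3, 5 and 6. In MET it was at 140 CPM in the pair and at 111, 162, 120 and 108 CPM in replicates 2, 4, 5 and 6. Apart from the pair and replicate 2, the CON samples lay below all MET samples, and the diets overlapped. The log2 fold change of PNPLA2 was 0.16 over the 12 libraries (95% confidence interval −0.28 to 0.59, edgeR adjusted p = 0.697) and 0.26 over the 10 samples (−0.20 to 0.73, adjusted p = 0.569). DEAF1 overlaps PNPLA2 on the opposite strand and held 765 reads, against 13911 for PNPLA2. PNPLA3 (Entrez gene 786474; chromosome 5, 115038661 to 115060313), a lipid droplet protein related to PNPLA2, had 4 reads in all: 1, 2 and 1 in CON replicates 1, 4 and 5, and 0 in the other 9 libraries. At 0 to 2 reads per library it was under the floor of 3 reads throughout, so that no diet comparison and no PNPLA3 to PNPLA2 ratio could be made.

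The partners of PNPLA2 did not pass the threshold either. ABHD5, its activator, was at 9.21 ± 2.25 CPM in CON and 9.66 ± 1.72 CPM in MET samples. G0S2, its inhibitor, was at 46.0 ± 20.6 and 82.1 ± 48.4 CPM, with a log2 fold change of 0.75 (95% confidence interval −0.04 to 1.55, edgeR adjusted p = 0.264). The highest G0S2 values, 155 and 107 CPM, were in MET replicates 4 and 2. The log2 fold change of G0S2 was 0.41 without MET replicate 4 and 0.97 without CON replicate 5. HILPDA, another inhibitor, was at 4.83 ± 2.29 and 3.93 ± 1.46 CPM (log2 fold change −0.36, edgeR adjusted p = 0.519), and MGLL, which splits monoacylglycerol in the last step, at 117 ± 22.3 and 107 ± 27.2 CPM (−0.19, adjusted p = 0.544). Without CON replicate 5 the value of HILPDA was −0.09. LIPE, the hormone-sensitive lipase of adipose tissue, had 65 reads in the 12 libraries together and was not tested.

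MTTP (Entrez gene 280868; chromosome 6, 26376148 to 26433473) encodes the large subunit of the transfer protein that lipidates apolipoprotein B. CON samples had 136 CPM in the pair and 206, 184, 205 and 149 CPM in replicates 2, 3, 5 and 6, and MET samples 171 CPM in the pair and 166, 131, 132 and 142 CPM in replicates 2, 4, 5 and 6. The highest 3 values were all CON, and the CON pair was among the lowest. The log2 fold change of MTTP was −0.16 over the 12 libraries (95% confidence interval −0.45 to 0.14, edgeR adjusted p = 0.553) and −0.25 over the 10 samples (−0.57 to 0.08, adjusted p = 0.437). P4HB, the protein disulfide isomerase that forms its small subunit, was at 1360 ± 329 and 1602 ± 347 CPM. TM6SF2, a protein of the endoplasmic reticulum needed to lipidate lipoproteins, was at 39.6 ± 5.03 and 46.7 ± 7.99 CPM (log2 fold change 0.29, edgeR adjusted p = 0.220).

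No sample was at one end for many genes. The CON pair had the highest value of the 10 samples in 3 of the 9 genes (LPIN1, LPIN2 and PNPLA2), CON replicate 2 in 2 (GPAM and MTTP), and MET replicate 4 combined the highest PLIN2 with the lowest GPAM and MTTP.

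Beyond the 10, 77 other genes of triacylglycerol handling were listed under synthesis, droplet proteins, lipolysis, export, fatty acid uptake and regulators. These lists were also drawn up with earlier results of these data known. Of the 77 genes, 76 were matched to a gene ID and 71 were tested. Of these, 5 were lower in MET at an FDR of 0.10 over the 12 libraries and 0 were higher (7.04%, against 4.41% of all genes tested), and edgeR's p before adjustment was at most 0.05 for 18 (25.4%, against 20.5%), 8 of them higher and 10 lower. The median log2 fold change of the 71 genes was −0.01. With 10 samples, edgeR called 0 of 71 at that FDR, its p before adjustment was at most 0.05 for 10 genes (14.1%, against 16.3% of all genes), and DESeq2 called 6 of the 64 to which it gave an adjusted p (9.38%, against 5.71%). The 5 lower genes were AADAC and DDHD2 of 9 tested lipolysis genes, HSD17B11 of 13 droplet genes, APOB of 13 export genes and PPARA of 11 regulators. None of the 13 other synthesis genes and none of the 12 uptake genes passed the threshold. The diets were fully apart in 5 of the 71 genes (7.04%, against 3.71% of all genes tested), which were AADAC, DDHD2, APOB and PPARA, all lower in MET, and AUP1, a droplet protein, higher.

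AADAC (Entrez gene 519557; chromosome 1, 116974385 to 116990798), a serine esterase of the endoplasmic reticulum linked to mobilisation of hepatic triacylglycerol, was at 78.8 to 121 CPM in CON and 50.4 to 67.9 CPM in MET samples. Its log2 fold change was −0.72 over the 12 libraries (95% confidence interval −0.99 to −0.46, edgeR adjusted p = 0.0398) and −0.78 over the 10 samples (adjusted p = 0.156). DDHD2 (Entrez gene 513116; chromosome 27, 33110521 to 33140951), an intracellular triacylglycerol hydrolase, was at 27.8 to 32.9 CPM in CON and 17.3 to 24.7 CPM in MET samples, with a log2 fold change of −0.50 (edgeR adjusted p = 0.0402) and of −0.51 over the 10 samples (adjusted p = 0.172). Both genes were lower in every MET sample than in any CON sample, as a description only, since they were named for their FDR in the same comparison. With each library left out in turn, AADAC stayed at FDR 0.10 or below in 12 of 12 fits and DDHD2 in 11, the exception being the fit without CON replicate 1 (edgeR adjusted p = 0.103). Both calls ended with the replicate block (adjusted p = 0.133 and 0.150) as over the 10 samples, and that of DDHD2 also with library size only (0.101). Of 25 alternative settings, 22 kept the call of AADAC and 20 that of DDHD2.

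HSD17B11 (Entrez gene 527592; chromosome 6, 104006455 to 104056158), a dehydrogenase found on droplets, averaged 590 ± 31.0 CPM in CON and 433 ± 76.1 CPM in MET samples (SD, n = 5). Its MET values were 369 to 429 CPM apart from 562 CPM in MET replicate 4, which lay inside the CON range of 546 to 629 CPM. The log2 fold change of HSD17B11 was −0.47 (edgeR adjusted p = 0.0692) and −0.45 over the 10 samples (adjusted p = 0.185). PPARA (Entrez gene 281992; chromosome 5, 117150450 to 117233112), the receptor that drives fatty acid oxidation genes, was at 15.9 to 19.6 CPM in CON and 10.2 to 15.4 CPM in MET samples, with log2 fold changes of −0.42 (edgeR adjusted p = 0.0849) and −0.45 (adjusted p = 0.178). Both calls were close to the threshold. Leaving out CON replicate 1 or 4 or any MET replicate but the fourth ended that of HSD17B11, and leaving out any library but CON replicates 2 and 5 ended that of PPARA, with edgeR adjusted p of at most 0.133 and 0.152. The call of HSD17B11 stood in 13 of 25 alternative settings and that of PPARA in 8. Neither stood with the replicate block.

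APOB (Entrez gene 494004; chromosome 11, 77953271 to 78040406), the structural protein of the lipoprotein that MTTP loads, was at 1113 to 1337 CPM in CON and 813 to 1043 CPM in MET samples, and the diets did not overlap. Its log2 fold change was −0.38 over the 12 libraries (95% confidence interval −0.60 to −0.15, edgeR adjusted p = 0.0859) and −0.41 over the 10 samples (adjusted p = 0.189). With a trend of each library on gene length removed, it was −0.19 (edgeR adjusted p = 0.374), and APOB has an exonic length of 14286 bases. Its call also ended when any 1 library other than MET replicate 5 was left out (edgeR adjusted p up to 0.139), while the DESeq2 adjusted p was 0.00118 with 12 libraries and 0.00974 with 10 samples, and that of voom 0.0826 with 12 libraries. The edgeR adjusted p was 0.176 with library size only, 0.110 with library size without the 10 most counted genes, 0.177 with no filter and 0.212 with the replicate block. APOB passed 0.10 in 7 of 25 alternative settings. SREBF1, whose product drives genes of fatty acid and triacylglycerol synthesis, was at 79.2 ± 20.5 CPM in CON and 116 ± 29.3 CPM in MET samples (log2 fold change 0.64, edgeR adjusted p = 0.103). It passed 0.10 in 4 of 25 alternative settings.

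Markers of other cells were read beside these genes. Of 7 Kupffer cell markers, C1QB and C1QC were higher in MET at an FDR of 0.10 over the 12 libraries, where 2.09% of all genes were, but not over the 10 samples (edgeR adjusted p = 0.213 and 0.175). The 7 summed to 1282 to 1703 CPM in CON and 1506 to 2002 CPM in MET samples. None of the 7 stellate and fibroblast markers (626 to 914 and 474 to 778 CPM), the 5 endothelial markers (231 to 384 and 208 to 331 CPM), the 6 hepatocyte markers or the tested cholangiocyte, erythroid and lymphocyte markers passed the threshold in the 12 libraries. Of the hepatocyte markers ALB came nearest (log2 fold change −0.65, edgeR adjusted p = 0.107, and 0.238 over the 10 samples), while TTR and FGB were at 0.07 and 0.03. The 5 adipocyte genes summed to 8.09 to 17.6 and 10.4 to 15.3 CPM, and the muscle and skin genes to at most 0.208 CPM. Erythroid genes ranged from 7.53 to 960 CPM in CON and from 56.6 to 459 CPM in MET samples. The part of these cells in the differences was not tested, and in a biopsy fewer cells of a type and less RNA per cell cannot be told apart.

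**Figure D3:**
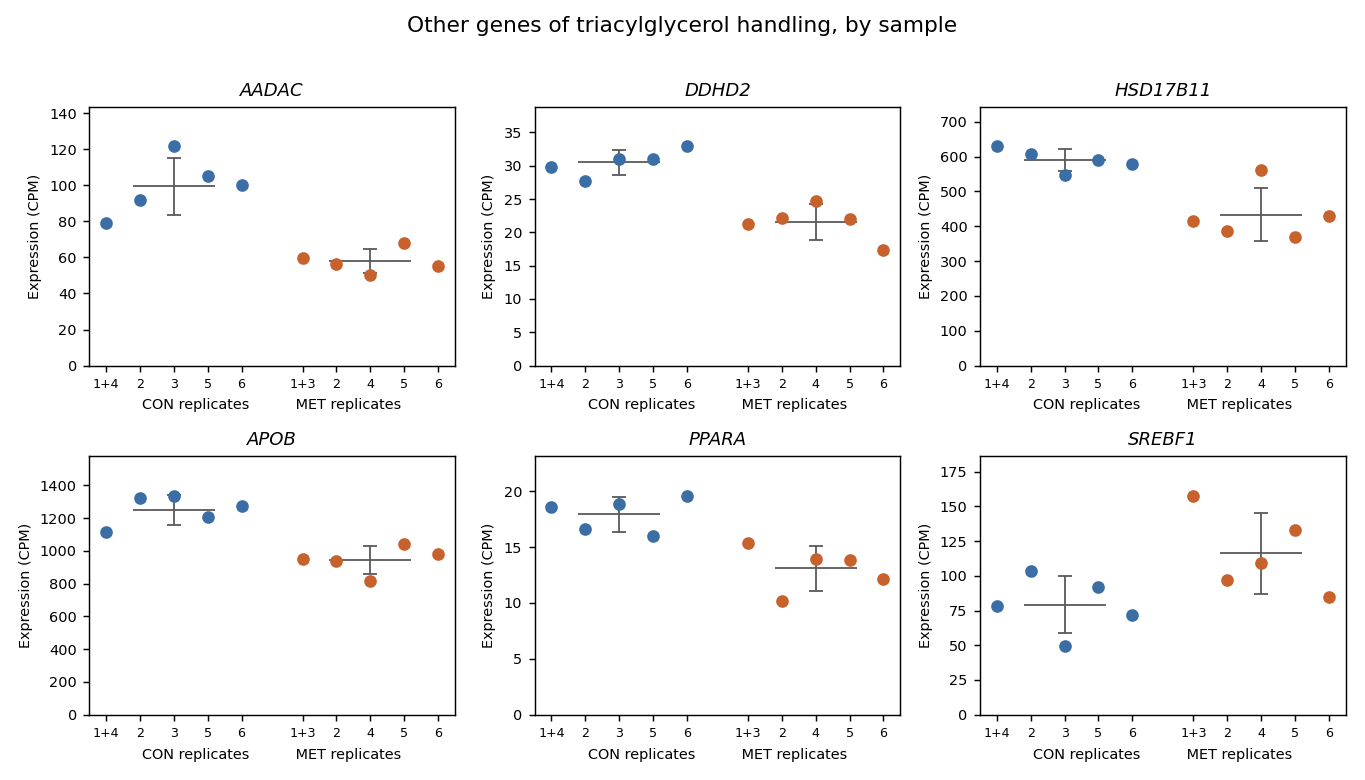
Expression (y axis, CPM) of the 5 other triacylglycerol genes that reached an FDR of 0.10 over the 12 libraries, and of SREBF1, in each of the 10 samples (x axis, replicate numbers; blue CON, orange MET; grey, mean and SD of 5 samples). APOB is at 1113 CPM or above in every CON sample and at 1043 CPM or below in every MET sample.

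**Figure D4:**
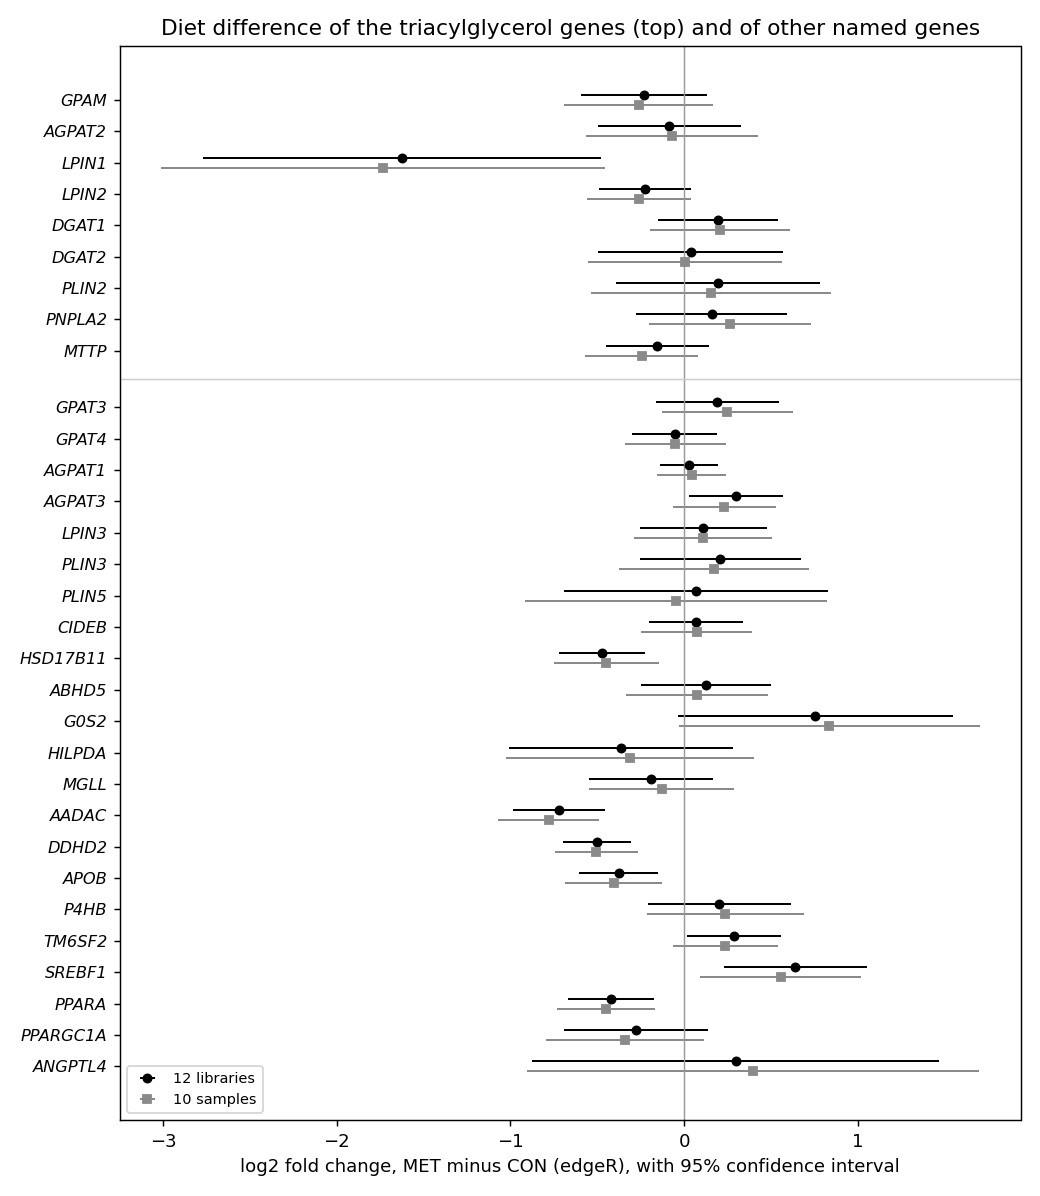
Log2 fold change from CON to MET (x axis) with its 95% confidence interval for the 9 tested triacylglycerol genes and 22 other named genes (y axis), over 12 libraries (black circles) and 10 samples (grey squares). Intervals of 8 of the 9 genes include 0, and that of LPIN1 runs from −2.77 to −0.48 over the 12 libraries without adjustment for the number of genes.

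Each of 4 triacylglycerol genes was set against a partner or regulator across the 10 samples, on log2 CPM. The intended pair of PNPLA3 and SREBF1 could not be computed. PLIN2 and ANGPTL4, both targets of fatty acid-activated PPARs, had a Pearson r of 0.69 (100000 permutations, p = 0.0303, 0.110 after Benjamini-Hochberg adjustment over the 4 pairs) and a Spearman rho of 0.55 (permutation p = 0.105, adjusted 0.140). With each diet's mean subtracted r was 0.69 (permutation p = 0.0282, adjusted 0.113). Without the 2 samples farthest from the median of ANGPTL4 r was 0.33 (n = 8, permutation p = 0.456), and without MET replicate 4 it was 0.31, so that the relation rests on those samples. ANGPTL4 was at 102 CPM in MET replicate 4 and 49.6 CPM in CON replicate 5, and at 11.0 to 24.1 CPM in the other 8 samples.

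For LPIN1 and PPARGC1A, a coactivator known to raise LPIN1 expression in the fasted liver, r was 0.57 (permutation p = 0.0798, adjusted 0.110) and rho 0.65 (permutation p = 0.0484, adjusted 0.140). It was 0.40 with diet means subtracted (permutation p = 0.243, adjusted 0.324) and 0.48 without the 2 farthest samples (n = 8, permutation p = 0.210). GPAM and SREBF1 had an r of 0.04 (permutation p = 0.900) and a rho of 0.09 (permutation p = 0.810), which adjustment left as they were, and an r of 0.42 with diet means subtracted (permutation p = 0.222, adjusted 0.324). Without the 2 farthest samples their r was −0.08 (n = 8, permutation p = 0.850). APOB was fully separated by diet, so for MTTP and APOB the value with diet means subtracted is given, an r of 0.35 (permutation p = 0.324, adjusted 0.324) with a rho of 0.22 (permutation p = 0.536). No correlation is given for a single diet, which holds only 5 samples.

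**Figure D5:**
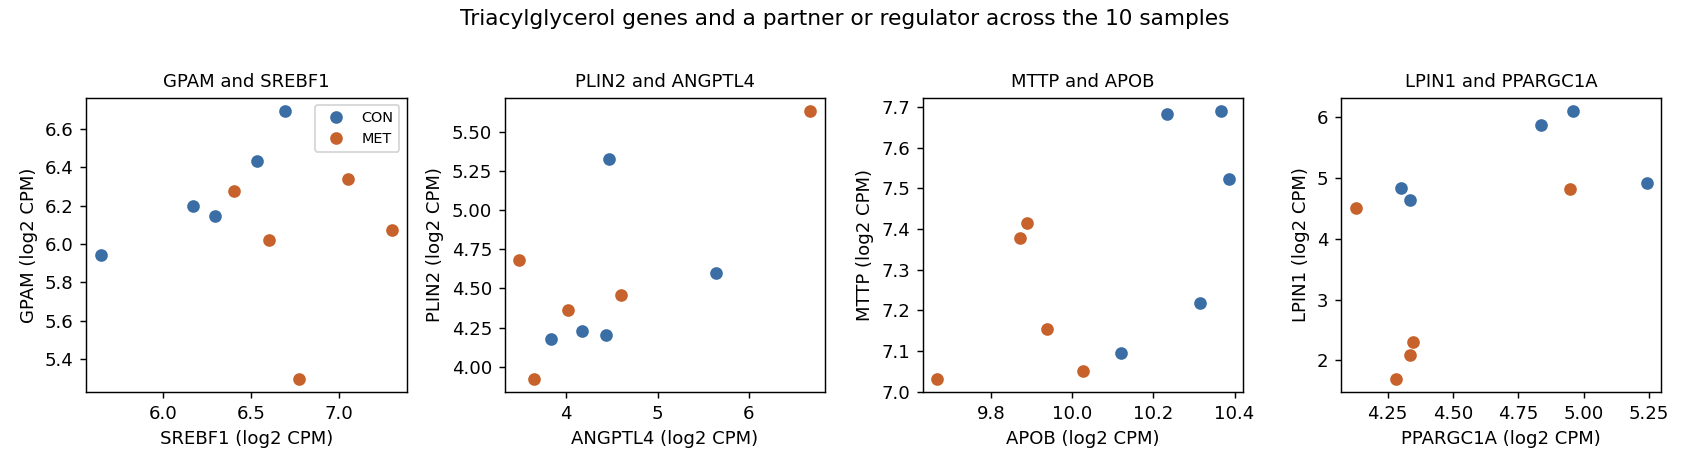
Log2 CPM of GPAM, PLIN2, MTTP and LPIN1 (y axes) against that of SREBF1, ANGPTL4, APOB and PPARGC1A (x axes) in the 10 samples (blue CON, orange MET). In the panel of PLIN2 the MET sample at the upper right is replicate 4, with 102 CPM of ANGPTL4 and 49.4 CPM of PLIN2.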

How the data were processed

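The series holds 12 liver RNA libraries (6 CON, 6 MET), each described as 1 calf, and groups and replicate numbers were taken from the labels. The authors trimmed the reads with Trimmomatic, aligned them to UMD 3.1.1 with STAR 2.5.3a and assigned them by strand with featureCounts of Subread 1.5.2 (versions per the labels), and they deposited raw counts per Entrez gene, with exons and lengths, without normalization. Reads from several places or genes were left out. Symbols came from a RefSeq table of a later assembly.

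CPM were computed after TMM normalization (edgeR 4.0.16, R 4.3.3), and RPKM from them and the exonic length in the files. Genes passed edgeR's default filter (minimum count 10, total 15), and each was tested for diet by edgeR's quasi-likelihood method, with Benjamini-Hochberg adjustment over all genes tested. Log2 CPM carried a prior count of 2. Single values were compared by exact permutation (SciPy 1.17.1) and figures drawn with Python 3.11.15. The edgeR, voom and DESeq2 fits by diet and the removal of the length trend were first tested on simulated counts of independent libraries. The other steps were not tested in this way.

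The 10 genes and all lists were chosen with earlier results of these data known. Named are the 10 genes, their isozymes, partners and regulators, and up to 10 further listed genes with FDR at most 0.10. C1QB, C1QC, AUP1, ADIPOQ, LEP, RETN, CIDEA, DEAF1 and GPAT2 were named after their values were seen. Alternatives were RLE, upper-quartile and library-size scaling, library size without the 10 most counted genes, no filter, DESeq2 1.42.0, voom (limma 3.58.1), robust estimation, removal of a loess trend on gene length (span 0.5), a replicate block, each library left out, and pairs of near-identical libraries counted once. Length removal over the 10 samples was added after the data had been seen. MOGAT2 matched several gene IDs and was left out. No sequences or GC contents were used here.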

Additional observations from a re-analysis of the deposited data

Results flagged for a closer look

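In 62 groups of 5 samples (31 named genes in each diet) 5 values stood apart from the other 4 of their diet by Dixon's test, which flags about 1 in 20 groups by chance. PLIN2 in CON replicate 6 was at 39.8 CPM, with the other CON samples at 17.8 to 24.0 CPM. ANGPTL4, an inhibitor of lipoprotein lipase, was at 102 CPM in MET replicate 4, with the other MET samples at 11.0 to 24.1 CPM. Among the CON samples, ANGPTL4 and HILPDA were both highest in replicate 5, ANGPTL4 at 49.6 CPM against 14.1 to 21.9 CPM and HILPDA at 8.86 CPM against 3.20 to 4.32 CPM. PPARGC1A was at 30.7 CPM in the sample of MET replicates 1 and 3, with the other MET samples at 17.3 to 20.1 CPM. The causes of these values were not tested.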

How the results depend on the processing

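PNPLA3, with 4 reads in all, was not compared. The least counted of the 9 tested genes, PLIN2 and LPIN1, had 2770 and 3397 reads in all, with 31 to 42 reads of LPIN1 in MET replicates 2, 5 and 6, and the effect of depth on their tests was not examined. Of 225 log2 fold changes of the 9 genes under alternatives, 215 kept direction and side of the threshold, 7 reversed and 3 passed the threshold. Of 550 for the other named genes, 475 did so, 55 lost the threshold, 5 gained it and 15 reversed, and the causes were not tested.

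The number of the 9 genes with FDR at most 0.10, 0 in the edgeR test, was 1 with DESeq2 over 12 libraries (10.4% of all genes), 1 with voom (4.21%) and 1 with the replicate block (0.0454%), each time LPIN1. The number of the 71 other listed genes, 5 in that test, was 0 over the 10 samples, 1 with library size only, 2 with no filter, 3 with the length trend removed, 0 with it removed over 10 samples, 0 with the replicate block, 7 of 68 with DESeq2 over 12 libraries (10.3%, against 10.4% of all genes) and 6 of 64 over the 10 samples (9.38%, against 5.71%), 6 with robust estimation (4.51% of all genes), and 1 (without CON replicate 1) to 6 (without CON replicate 2) with each library left out. Same-numbered CON and MET libraries did not deviate together (correlations −0.19 to 0.148, 1 of 6 over 0.1, 0 best with their own number), so the numbers pair nothing. Over all genes, the number of calls was 583 in that test, 6 with the replicate block, 107 with library size only, 26 without CON replicate 1, 35 without CON replicate 4, 238 with no filter, 245 with the length trend removed, 556 with voom, 596 with robust estimation and 1314 with DESeq2.

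Values with each library left out ran from −0.17 to 0.0444 for AGPAT2 (positive without CON replicate 5 or MET replicate 5), −0.13 to 0.15 for DGAT2 (negative without CON replicates 2 or 3 or MET replicates 1 or 3), −0.0814 to 0.43 for PLIN2 (negative without MET replicate 4), −0.00361 to 0.0537 for AGPAT1, −0.10 to 0.24 for PLIN5 and −0.68 to 0.65 for ANGPTL4. PLIN5 was also negative over the 10 samples (−0.0459, −0.0570 with DESeq2 and −0.0611 with the length trend removed) and with the replicate block (−0.00398), CIDEB with the length trend removed (−0.0365, and −0.0258 over 10 samples), and ANGPTL4 with voom (−0.17) and the replicate block (−0.20). With the sign kept, they ran from 0.0575 (without CON replicate 6) to 0.29 (without CON replicate 4) for PNPLA2, 0.0926 (without MET replicate 2) to 0.28 (without CON replicate 2) for DGAT1, −0.30 (without MET replicate 5) to −0.12 (without MET replicate 4) for GPAM and −0.21 (without CON replicate 1) to −0.0906 (without CON replicate 2) for MTTP. With the length trend removed, LPIN2 was at −0.0795, GPAM at −0.12, MTTP at −0.0925 and AGPAT2 at −0.18. Over the 25 alternative settings, values ran from 0.0798 to 0.29 for GPAT3, −0.12 to −0.00486 for GPAT4, 0.0399 to 0.19 for LPIN3 and −0.33 to −0.00760 for MGLL. The LPIN2 to LPIN1 difference was 1.62 to 2.32 with each library left out. The r of GPAM and SREBF1 was −0.00329 over 12 libraries and −0.0300 with library size only. With each library left out it was −0.12 to 0.31, and that of PLIN2 and ANGPTL4 0.31 to 0.80. Without subtraction of diet means, that of MTTP and APOB was 0.58 (permutation p = 0.0827, 0.110 adjusted) and 0.68 with library size only (permutation p = 0.0305). Those values for MTTP and APOB include the diet difference of APOB, so they do not show a relation across calves. That of LPIN1 and PPARGC1A was 0.62 over 12 libraries (permutation p = 0.0379), where near-identical libraries count as separate samples.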
